A study of Mus musculus with 12 samples.

Results

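The phosphate, vitamin D and Klotho axis was read as 10 genes given by name, and all 10 had a row among the 23420 genes of the count table from mouse kidney. They are the sodium-phosphate carriers Slc34a1, Slc34a3, Slc20a1 and Slc20a2, the parathyroid hormone receptor Pth1r, the FGF23 co-receptor Kl (Klotho) with its partner receptor Fgfr1, the vitamin D hydroxylases Cyp27b1 and Cyp24a1, and the vitamin D receptor Vdr. Counts from 12 kidneys of C57BL/6J males were compared, with 4 kidneys in each of 3 groups. The methods give an age of 8 to 15 weeks and no transgene. The control kidneys were removed by nephrectomy. For the 8 ischemic kidneys, the right kidney of the mouse was excised under ketamine and xylazine, and the left kidney was clamped through a tunnelled thread device for 20 min and collected after 24 h of reperfusion. The device was closed under brief isoflurane even in the mice called conscious, and the mice received buprenorphine. The labels also list the 20 min of ischemia and the 24 h for the control kidneys. The labels disagree on which ischemic kidneys were anaesthetised. In set A the titles say anaesthetised and the group field says conscious, in set B it is the reverse, and no direction was given to anaesthesia. Ischemia, surgery, loss of the other kidney and the side of the body cannot be told apart in the comparisons with control, and the sources used here do not say whether a control kidney and a clamped kidney came from the same mouse.

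In the kidney, most filtered phosphate is taken back in the proximal tubule by sodium-coupled carriers of the brush border, chiefly the protein made from Slc34a1, with a smaller part for Slc34a3. Parathyroid hormone and FGF23, the bone hormone that needs Klotho beside an FGF receptor, both withdraw these carriers from the membrane and so increase phosphate excretion. FGF23 also lowers Cyp27b1, whose enzyme activates vitamin D in the proximal tubule, and raises Cyp24a1, whose enzyme inactivates it, whereas parathyroid hormone raises Cyp27b1. Active vitamin D acts through the nuclear receptor Vdr, and Klotho mRNA is found most strongly in the distal convoluted tubule and, at a lower level, in the proximal tubule.

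Between 15367342 and 44793350 counts were assigned to genes per kidney (20364386 to 39155807 in control, 16814285 to 44793350 in set A, 15367342 to 29905140 in set B). Levels are given as CPM, the count of a gene scaled to the total of its kidney. A total of 3 counts, used as the detection floor, lay between 0.067 and 0.195 CPM and covers counting error only, as the reads carried no molecular identifiers. Zeros were frequent in these libraries, since 30.55% of the genes tested were at 0 in at least 1 kidney. The tissue label was checked by nephron markers. The 12 proximal tubule markers summed to 14312 to 15582 CPM in control, and all 12 were lower in each ischemic set, where the sums were 2250 to 3805 CPM (set A) and 1818 to 4664 CPM (set B). The 7 injured tubule markers summed to 221 to 262 CPM in control, 2013 to 2283 CPM (set A) and 1572 to 1704 CPM (set B) after ischemia, and 6 of 7 were higher in each set. For every gene described here, fewer cells of a type and less mRNA per cell cannot be told apart in whole kidneys.

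Of the 10 genes, 9 passed the filter on low counts and Cyp27b1 did not. In set A against control, 6 of these 9 genes passed edgeR's quasi-likelihood F-test (Benjamini-Hochberg adjusted p below 0.05 over 11664 genes), against 22.3% of all genes tested. Slc34a1, Slc34a3, Pth1r, Kl and Vdr were lower, against 11.7% of all genes, and Slc20a1 was higher, against 10.5%. In set B against control the same 6 genes passed in the same directions, where the shares of all genes were 22.8% in either direction, 11.9% lower and 10.9% higher. These 6 genes passed in both sets under each of the 19 alternatives run, among them every fit with a single kidney left out. The CPM ranges of set A and control did not overlap for these 6 genes and for Fgfr1, against 28.5% of all genes tested, and those of set B and control did not overlap for the same 6 without Fgfr1, against 26.8%. Both comparisons use the same 4 control kidneys. The median log2 fold change of the 9 genes was -1.16 for set A and -1.46 for set B against control, whereas the median over all genes tested was -0.016 and -0.018.

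**Figure D1:**
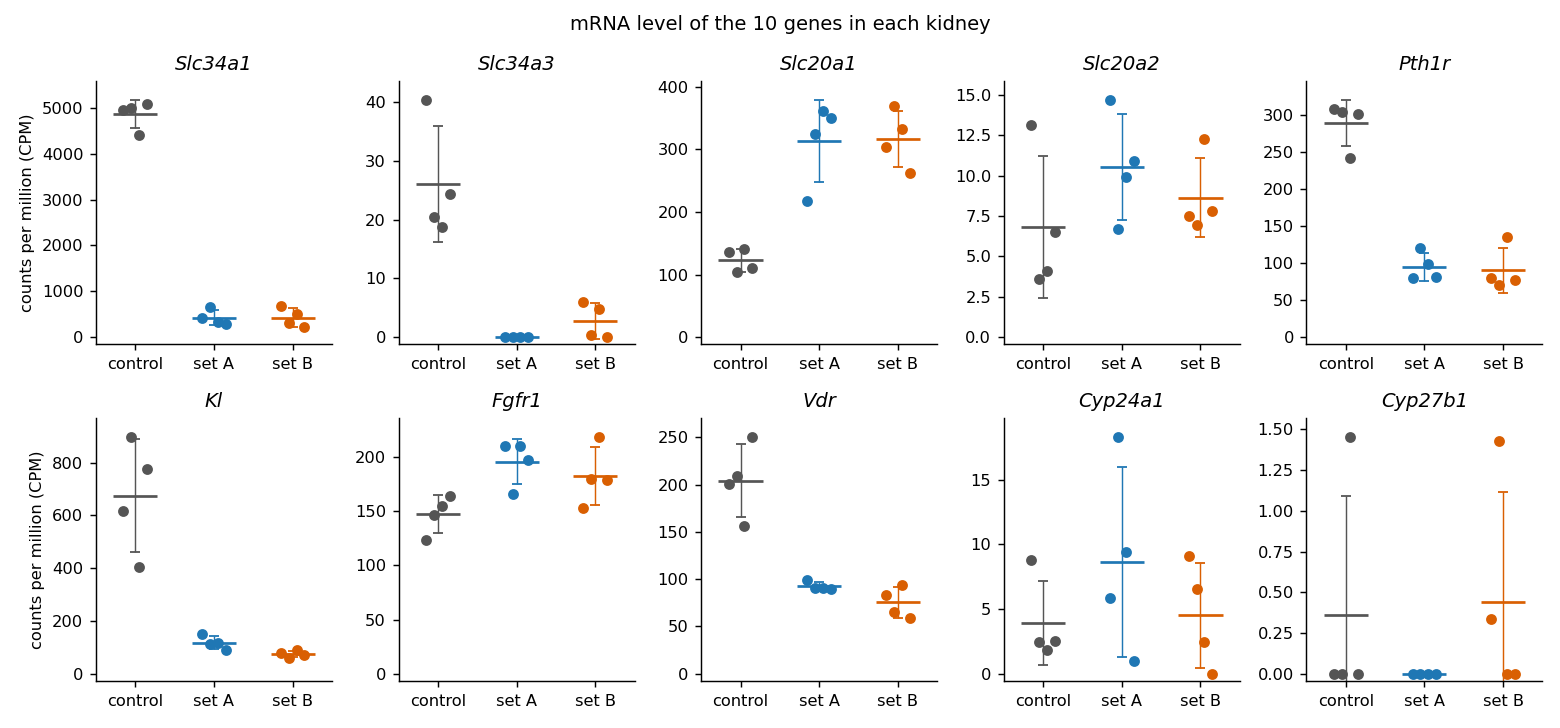
Level of each of the 10 genes in every kidney, in CPM on a linear axis from 0, with a panel for each gene. Points are kidneys (4 in each group), horizontal lines are group means and bars are 1 SD. Slc34a1, Pth1r, Kl and Vdr lie lower in all 8 ischemic kidneys than in any control kidney, Slc20a1 lies higher in all 8, and Cyp27b1 is at 0 in 9 of the 12 kidneys.

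Slc34a1 encodes the main brush border phosphate carrier of the proximal tubule, NaPi-IIa, and lies on chromosome 13 from 55398187 to 55415592 of mm10 (plus strand, GENCODE M21). Slc20a1 encodes a sodium-phosphate carrier found in most cell types, Pit1, and lies on chromosome 2 from 129198764 to 129211616 (plus strand). Kl encodes Klotho and lies on chromosome 5 from 150952607 to 150993817 (plus strand). The promoters of these genes are printed because they are the carrier that fell most among those with counts in every kidney, the carrier that rose and the co-receptor. Each is 300 bases from RefSeq (GRCm38.p6, plus strand), with 250 bases before and 50 after an annotated start, and the capitals mark the best match on either strand to the vitamin D response element, taken as a direct repeat of AGGTCA with any 3 bases between its 2 copies. Where several places matched equally well (3 in Slc34a1 and 2 in Slc20a1), 1 of them is marked.
Slc34a1, chr13:55399398-55399697: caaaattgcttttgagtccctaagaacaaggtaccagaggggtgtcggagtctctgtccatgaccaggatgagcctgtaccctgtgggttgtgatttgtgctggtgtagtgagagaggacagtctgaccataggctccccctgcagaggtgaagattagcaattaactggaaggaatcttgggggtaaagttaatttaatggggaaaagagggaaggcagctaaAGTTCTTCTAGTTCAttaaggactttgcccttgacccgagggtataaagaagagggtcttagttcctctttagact
Slc20a1, chr2:129198523-129198822: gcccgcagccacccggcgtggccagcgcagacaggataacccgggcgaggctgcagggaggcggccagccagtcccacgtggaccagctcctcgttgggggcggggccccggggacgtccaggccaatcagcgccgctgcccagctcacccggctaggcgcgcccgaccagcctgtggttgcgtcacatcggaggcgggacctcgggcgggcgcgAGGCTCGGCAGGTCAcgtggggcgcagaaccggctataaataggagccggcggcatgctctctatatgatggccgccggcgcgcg
Kl, chr5:150952357-150952656: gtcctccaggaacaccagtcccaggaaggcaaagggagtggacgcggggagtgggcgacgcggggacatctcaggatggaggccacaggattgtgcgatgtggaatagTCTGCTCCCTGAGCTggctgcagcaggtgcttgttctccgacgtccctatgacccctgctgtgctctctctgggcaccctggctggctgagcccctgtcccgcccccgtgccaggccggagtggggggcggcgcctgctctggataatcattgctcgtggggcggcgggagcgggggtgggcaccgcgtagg
The best match differed from the 12 defined bases of the element at 3 positions in the printed Slc34a1 and Slc20a1 promoters and at 4 positions in the Kl promoter, where it lay on the minus strand. Another Slc20a1 promoter (chr2:129206846-129207145) had a best match with 4 differences, so that the printed Slc20a1 promoter is the closer match. The shares that follow count each promoter singly. A match with 3 or fewer differences was present in 22.4% of 32851 promoters of this length, and a match with 4 or fewer in 77.9%. No promoter of these 3 genes held this repeat without a difference in this window, and half-sites with other letters were not searched for. Promoters were matched for 7 of the 10 genes, and the best matches of the other 4 (Cyp27b1, Slc34a3, Vdr and Pth1r) had 3, 4, 4 and 5 differences.

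Slc34a1 was the most abundant of the 10 genes in control kidneys, with 4964, 5001, 4409 and 5091 CPM in replicates 1 to 4. It was at 416, 653, 337 and 290 CPM in set A, and at 680, 317, 498 and 214 CPM in set B. Every ischemic kidney therefore lay far under every control kidney, and the sets overlapped widely. The log2 fold change was -3.55 ± 0.29 (SE) in set A (11.7-fold lower, edgeR adjusted p = 2.45e-08) and -3.53 ± 0.29 in set B (11.5-fold lower, adjusted p = 2.66e-08). Expressed as a percentage of the summed CPM of the 12 proximal tubule markers, Slc34a1 stood at 32.6 ± 2.17 (SD, n = 4) in control, 14.6 ± 3.90 in set A and 12.9 ± 1.87 in set B. Its level was thus lower also relative to the other proximal tubule markers, with no overlap between control (29.9 to 34.9) and either set (10.1 to 18.5 and 10.9 to 14.6). The gene overlaps an exon of Pfn3 on the other strand, and the sources used here do not give the strand setting of the counting.

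Slc34a3 encodes the second renal carrier of the same family, NaPi-IIc, and lies on chromosome 2 from 25228898 to 25234364 of mm10 (minus strand). Control kidneys had 822, 802, 502 and 950 counts, which correspond to 40.4, 20.5, 18.7 and 24.4 CPM. In set A the counts were 0, 1, 0 and 0, and in set B they were 180, 6, 96 and 0 (6.02, 0.373, 4.74 and 0 CPM). The gene was thus at or under the floor in all 4 kidneys of set A, and in set B it was detected above the floor in 3 of 4. With set A placed at the floor of 3 counts per library, the level was at least 220.5-fold lower than in control (edgeR adjusted p = 7.00e-06). In set B the log2 fold change was -3.21 ± 0.87 (9.28-fold lower, adjusted p = 0.0101). It was -3.96 without replicate 1 of set B, -4.14 with the replicate number as a block and -4.66 in limma-trend, and the adjusted p rose to 0.0478 without replicate 1 of control. Replicate 3 of set A had the most counts of any kidney (44793350) and none for Slc34a3. Within set B, the kidneys with the higher Slc34a3 (replicates 1 and 3) also had the higher Slc34a1, the higher sum of proximal tubule markers (4664 and 3442 CPM, against 2911 and 1818 CPM) and the larger totals (29905140 and 20257933 counts), and the part of these in the result was not tested.

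Slc20a1 moved in the other direction. It had 135, 104, 141 and 110 CPM in control, 217, 325, 361 and 350 CPM in set A, and 304, 369, 332 and 262 CPM in set B. The lowest ischemic kidney lay above the highest control kidney. The log2 fold change was 1.33 ± 0.17 in set A (2.51-fold higher, edgeR adjusted p = 5.98e-06) and 1.35 ± 0.17 in set B (2.55-fold higher, adjusted p = 5.22e-06). Slc20a2, which encodes the related carrier Pit2 and lies on chromosome 8 from 22476788 to 22569612 (plus strand), was at a low level throughout, with 13.1, 3.58, 4.11 and 6.49 CPM in control. Its values were 14.7, 6.69, 9.91 and 10.9 CPM in set A and 7.52, 6.95, 12.2 and 7.81 CPM in set B. The groups overlapped, and neither comparison passed the test (log2 fold change 0.62 ± 0.48, adjusted p = 0.442 in set A, and 0.33 ± 0.48, adjusted p = 0.727 in set B).

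The 4 carriers were then set beside each other per length, as RPKM, which is CPM divided by exon length in kilobases. The summed level of the 4 carriers was 977 to 1120 RPKM in control, 126 to 199 RPKM in set A and 94.1 to 204 RPKM in the set B kidneys. Slc20a1 and Slc20a2 together made up 2.16 ± 0.43% of this sum in control (SD, n = 4, range 1.76 to 2.65%), 40.1 ± 10.9% in set A (29.8 to 51.0%) and 41.1 ± 11.4% in set B (27.4 to 51.3%). The share was higher in 4 of 4 kidneys of each set than in any control kidney, by 37.9 and 39.0 percentage points (exact permutation, two-sided, p = 0.0286 in both cases, the smallest that 4 kidneys against 4 allow, and 0.0858 after Benjamini-Hochberg adjustment over 6 ratio tests). The sets differed by 1.05 percentage points (exact permutation p = 0.857, adjusted p = 0.857). Nearly all of the Slc20 share was Slc20a1, and both the fall of Slc34a1 and the rise of Slc20a1 enter it.

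**Figure D2:**
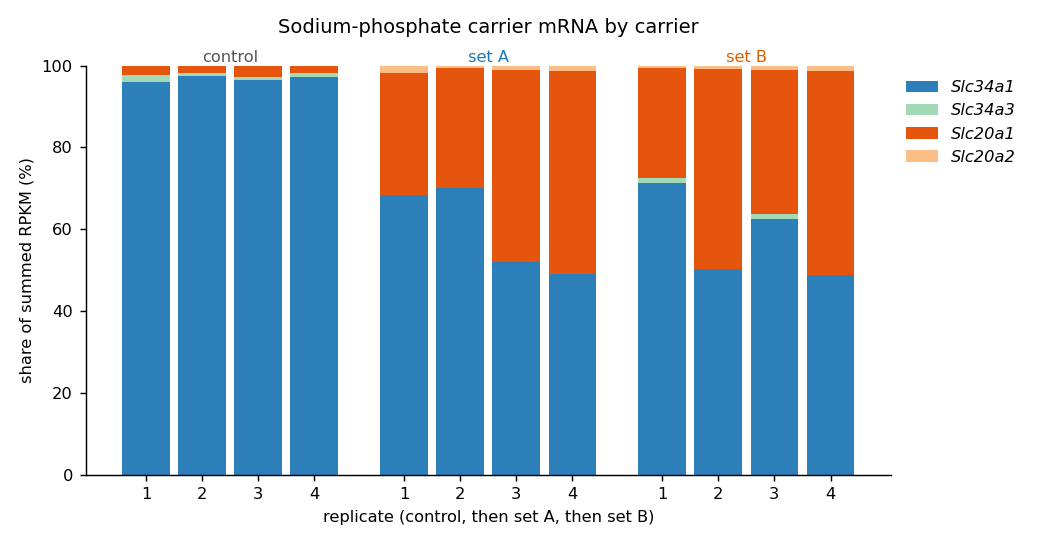
Share of each carrier in the summed RPKM of the 4 sodium-phosphate carriers, in percent on an axis from 0 to 100, with a stacked bar for each kidney. Slc34a1 fills nearly the whole bar in the 4 control kidneys, and Slc20a1 with Slc20a2 fills 29.8 to 51.0% of the bars of set A and 27.4 to 51.3% of those of set B.

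Pth1r encodes the receptor through which parathyroid hormone acts on the tubule, and lies on chromosome 9 from 110722085 to 110747145 (minus strand), where an exon overlaps Myl3 on the other strand. It had 307, 304, 242 and 302 CPM in control, 80.1, 121, 98.2 and 81.5 CPM in set A, and 79.6, 69.9, 136 and 76.7 CPM in set B. The ischemic kidneys lay under the controls without overlap, and replicate 3 was the highest kidney of set B and the lowest of the controls. The log2 fold change was -1.63 ± 0.19 in set A (3.09-fold lower, edgeR adjusted p = 2.37e-06) and -1.70 ± 0.19 in set B (3.25-fold lower, adjusted p = 1.53e-06). Relative to the proximal tubule markers, Pth1r went the other way from Slc34a1. It corresponded to 1.93 ± 0.20% (SD, n = 4) of their summed CPM in control, 3.32 ± 0.40% after ischemia in set A, with 3.07 ± 1.21% in set B. The range of set A (2.83 to 3.72%) lay above that of control (1.65 to 2.13%), whereas the range of set B (1.71 to 4.22%) overlapped it.

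Klotho mRNA was low in all ischemic kidneys. Kl had 618, 898, 405 and 777 CPM in control, 152, 114, 115 and 90.7 CPM in set A, and 79.3, 59.7, 88.9 and 70.8 CPM in set B. The controls spread widely, and still the lowest control was above the highest ischemic kidney. The log2 fold change was -2.54 ± 0.21 in set A (5.82-fold lower, edgeR adjusted p = 2.77e-08) and -3.20 ± 0.22 in set B (9.18-fold lower, adjusted p = 2.38e-09). Kl corresponded to 4.53 ± 1.51% of the summed proximal tubule markers in control, 4.32 ± 1.74% in set A and 2.56 ± 0.96% in set B, with overlapping ranges. The summed markers of the distal convoluted and connecting tubule ranged from 1417 to 1813 CPM in control, 1222 to 1543 CPM (set A) and 1116 to 1841 CPM (set B) after ischemia, with 2 of 6 lower for set A and 3 of 6 for set B. Slc12a3, the sodium-chloride cotransporter that defines this segment, had a log2 fold change of -0.22 ± 0.14 in set A (adjusted p = 0.327) and -0.14 ± 0.14 in set B (adjusted p = 0.590). Klhl3, a ubiquitin ligase adaptor of the same segment, had log2 fold changes of -1.78 ± 0.46 and -2.89 ± 0.49 (adjusted p = 0.00804 and 1.64e-04). The other markers of the list that passed were the cation channel Trpm7 (-1.06 ± 0.15 and -0.98 ± 0.15, adjusted p = 1.67e-05 and 4.24e-05) and, in set B, Pvalb, which was at 0 counts in all 4 kidneys of set B (adjusted p = 0.0327, with 0.111 for set A). Wnk4 (0.01 ± 0.20 and 0.28 ± 0.20, adjusted p = 0.986 and 0.387) and Trpm6 (-0.04 ± 0.45 and -0.23 ± 0.45, adjusted p = 0.976 and 0.817) did not pass. The part of a change in these cells in the Kl values was not tested.

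Fgfr1, one of the FGF receptors that bind FGF23 together with Klotho, lies on chromosome 8 from 25513654 to 25575718 (plus strand). It had 123, 147, 154 and 164 CPM in control, 210, 165, 210 and 197 CPM in set A, and 153, 179, 218 and 178 CPM in set B. All 4 kidneys of set A lay above the controls, by a small margin at replicate 2, and set B overlapped the controls. The log2 fold change was 0.38 ± 0.14 in set A (1.30-fold, edgeR adjusted p = 0.0638) and 0.28 ± 0.14 in set B (1.21-fold, adjusted p = 0.188). For set A the adjusted p ranged from 0.0287 to 0.188 over the 19 alternatives and was below 0.05 in 5 of them, among them DESeq2 (0.0287) and a fit of only the groups compared (0.0399). Without replicate 2 of set A it was 0.0378. The summed stroma markers, a tissue part in which Fgfr1 is also expressed, were 515 to 739 CPM in control, 1373 to 3717 CPM (set A) and 1692 to 3172 CPM (set B) after ischemia. Of the 5 tested markers, 3 were higher in each set. In set A these were Col1a1 and Acta2, with means of 1456 and 781 CPM, and Col3a1. The receptors Pdgfrb (0.40 ± 0.31, edgeR adjusted p = 0.452) and Pdgfra (-0.41 ± 0.48, adjusted p = 0.669) did not pass in set A. In set B their means were 40.0 and 6.90 CPM, against 34.6 and 9.96 CPM in control. The part of stroma in the Fgfr1 values was not tested.

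Vdr lies on chromosome 15 from 97854425 to 97910630 (minus strand). It had 200, 210, 156 and 251 CPM in control, 98.7, 90.9, 90.4 and 90.2 CPM in set A, and 83.2, 65.6, 94.2 and 59.2 CPM in set B. The ischemic kidneys were all under the controls, and the values of set A were close to each other. The log2 fold change was -1.16 ± 0.17 in set A (2.24-fold lower, edgeR adjusted p = 3.26e-05) and -1.46 ± 0.17 in set B (2.74-fold lower, adjusted p = 2.64e-06). Relative to the proximal tubule markers Vdr was higher, and it corresponded to 1.37 ± 0.25% of their summed CPM in control, 3.33 ± 0.83% in set A, with 2.51 ± 0.63% in set B. The ranges of both sets (2.39 to 4.39% and 1.78 to 3.26%) lay above that of control (1.06 to 1.65%).

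The vitamin D hydroxylases were low in these kidneys, and Cyp27b1 was mostly undetected. Cyp27b1, on chromosome 10 from 127048250 to 127053006 (plus strand), had 0, 0, 39 and 0 counts in control, 0 counts in all 4 kidneys of set A, and 10, 23, 0 and 0 counts in set B. It was detected in 3 of 12 kidneys, none of them in set A, and it was not tested with the other genes. In a fit without the low-count filter its adjusted p against control was 0.216 for set A and 1 for set B. Cyp24a1, on chromosome 2 from 170482708 to 170497145 (minus strand, overlapping an exon of Pfdn4 on the other strand), had 179, 97, 49 and 100 counts in control (8.79, 2.48, 1.83 and 2.57 CPM). It had 182, 422, 421 and 17 counts in set A (5.82, 18.3, 9.40 and 1.01 CPM) and 272, 105, 50 and 0 counts in set B (9.10, 6.52, 2.47 and 0 CPM). The kidneys of each set spread over both sides of the controls, and no direction was called (log2 fold change 1.13 ± 1.002, edgeR adjusted p = 0.527 in set A, and 0.23 ± 0.99, adjusted p = 0.927 in set B, where the sign turned under 5 of 19 alternatives).

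The balance of the inactivating over the activating enzyme was taken within each kidney as the log2 ratio of Cyp24a1 to Cyp27b1 counts, with 0.5 added to each. It was 6.02 ± 3.82 (SD, n = 4) in control, 8.27 ± 2.17 in set A, with 3.38 ± 2.91 in set B. The ranges overlapped in each pair of groups, and two-sided exact permutation tests gave p = 0.429 for set A against control, 0.286 for set B against control and 0.0571 for set B against set A (0.515, 0.429 and 0.114 after Benjamini-Hochberg adjustment over 6 ratio tests). With Cyp27b1 at 0 in 9 kidneys, the ratio mostly follows Cyp24a1, the depth and the added 0.5. Zeros were not limited to genes of restricted expression, as Fdx1, the ferredoxin that feeds electrons to both hydroxylases and is used in most cells, had 35 counts in a single control kidney and 0 in the other 11 kidneys. The source of such zeros was not tested.

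**Figure D3:**
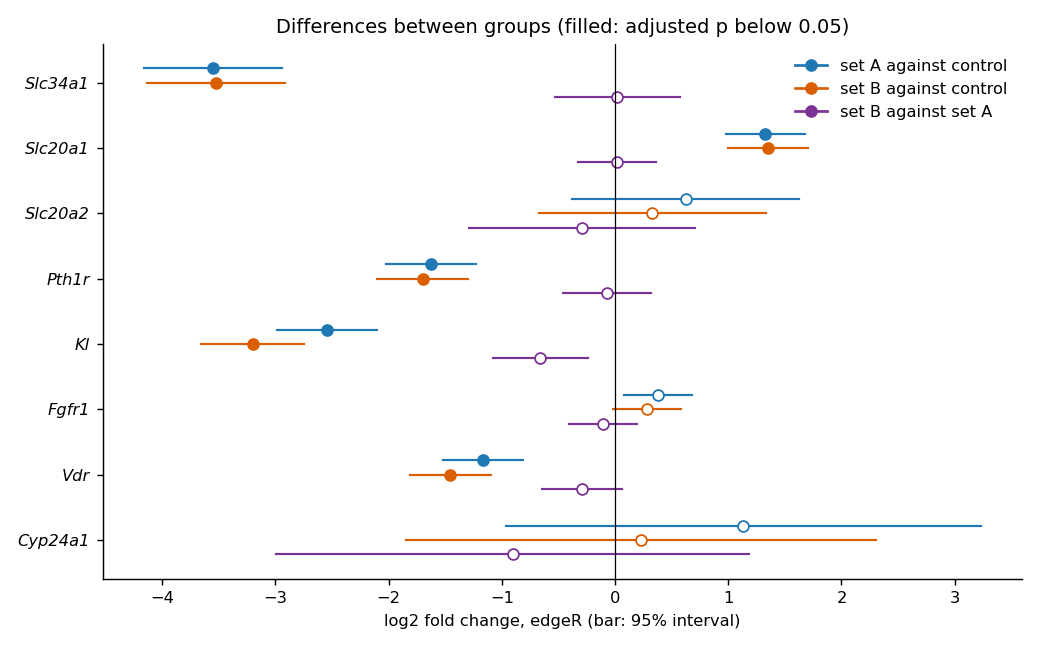
Log2 fold change of 8 of the genes in each comparison of 2 groups, from edgeR. Points are estimates, horizontal bars are 95% intervals and filled points have an adjusted p below 0.05. Slc34a3 is left out because set A was at the detection floor, and Cyp27b1 because it was not tested. Slc34a1, Pth1r, Kl and Vdr lie left of 0 and Slc20a1 right of 0 in both comparisons with control, and no point of set B against set A is filled.

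Between the ischemic sets, 0 of the 9 tested genes passed in edgeR (adjusted p below 0.05), where 0.00857% of all genes tested passed, and 2 of them, Slc34a3 and Kl, had an unadjusted p below 0.05, against 5.03% of all genes. DESeq2 called 1 of the 9, Slc34a3, where it called 0.232% of all genes. Kl was lower in every kidney of set B (59.7 to 88.9 CPM) than in any of set A (90.7 to 151.9 CPM), against 2.65% of all genes with ranges that did not overlap. Its log2 difference of set B from set A was -0.66 ± 0.20 (95% interval -1.08 to -0.24, unadjusted p = 0.00402, edgeR adjusted p = 0.930), and no alternative brought it past the threshold. For Slc34a3 the level in set B was at least 23.6-fold higher than in set A when set A was placed at the floor (edgeR unadjusted p = 1.67e-05, adjusted p = 0.0972), although replicate 4 of set B was at 0 as were 3 kidneys of set A. Without replicate 1 of set B this bound was 14.5-fold, and with any other kidney of set B left out it lay between 18.1-fold and 31.5-fold. The adjusted p of this difference ranged from 1.91e-05 to 0.848 over 18 alternatives, and it was below 0.05 in 4 of them, namely DESeq2 (1.91e-05), no low-count filter (0.00139), and the fits without replicate 2 (0.0279) or replicate 4 (7.38e-04) of set B. The 95% intervals of the difference were -0.53 to 0.57 for Slc34a1, -0.32 to 0.37 for Slc20a1, -0.46 to 0.32 for Pth1r, -0.64 to 0.06 for Vdr and -0.40 to 0.20 for Fgfr1 on the log2 scale. They were much wider for the low genes, at -1.29 to 0.71 for Slc20a2 and -2.99 to 1.19 for Cyp24a1.

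By mean level per length, Slc34a1 stayed the highest of the 10 genes and the order below it changed. In control the mean levels per length were 1041 RPKM for Slc34a1, 98.8 for Pth1r, 72.3 for Kl, 36.1 for Vdr, 21.97 for Slc20a1, 14.9 for Fgfr1 and 11.02 for Slc34a3. Cyp24a1, Slc20a2 and Cyp27b1 followed at 1.10, 1.10 and 0.141 RPKM. Over the control kidneys the ranges of neighbours overlapped for Pth1r and Kl, Kl and Vdr, Fgfr1 and Slc34a3, and Cyp24a1 and Slc20a2. Such ranges set different kidneys against each other, and the order of these genes within each kidney was not tested. In set A the order was Slc34a1 (90.7 RPKM), Slc20a1 (56.1), Pth1r (32.5), Fgfr1 (19.8), Vdr (16.4) and Kl (12.6), and in set B it was the same (91.4, 56.8, 30.9, 18.4, 13.4 and 8.01 RPKM). Slc20a1 thus stood at rank 5 in control and rank 2 in both sets, where its range overlapped that of Slc34a1 and, in set A, that of Pth1r. In replicate 4 of set A and replicate 4 of set B, Slc20a1 was above Slc34a1 (49.6 against 49.0% and 49.9 against 48.7% of the carrier sum). The ranges of Fgfr1 and Vdr overlapped in both sets. Kl went from rank 3 to rank 6, and in set A its range overlapped that of Vdr above it, whereas in set B it did not. The remaining genes were at 2.43 RPKM or less in set A and 1.39 RPKM or less in set B.

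The genes whose log2 CPM profile over the 12 kidneys lay nearest to a member were sought among 8512 genes, by the root mean square distance after centring. This was done for 8 of the 10 genes, without Slc34a3, whose mean log2 CPM over the kidneys was under 1, and Cyp27b1, which failed the low-count filter. Slc34a1 was nearest to Acss2 (distance 0.29), Bhmt2 (0.37) and Cyp4b1 (0.37). Kl was nearest to Chpt1 (0.31), Slc9a8 (0.33) and Bhmt2 (0.38), so that Bhmt2 was among the nearest 3 of both. Pth1r was nearest to Tmbim6 (0.22), Vdr to Fuca1 (0.12), Slc20a1 to Tpm3 (0.19) and Fgfr1 to Eif4h (0.14). The nearest genes to Slc20a2 and Cyp24a1 were Scrib (0.36) and Gja1 (0.71). The SD of the profiles of these 8 genes ranged from 0.24 (Fgfr1) to 2.08 (Cyp24a1), so that the distances are not on 1 scale of likeness. The profiles share the same libraries and the same difference between ischemic and control kidneys.

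The other genes of phosphate handling were read from a list of 9 carriers and scaffolds, of which 2 were higher and 5 lower in each set, with a median log2 fold change of -0.89 (set A) and -0.95 (set B). The shares of all genes tested were 10.5% higher and 11.7% lower for set A, 10.9% and 11.9% for set B, and the counts of this list and of those that follow stand beside these shares. Pdzk1, the scaffold that holds NaPi-IIa at the brush border, fell from 133.8 ± 17.9 CPM (SD, n = 4) in control to 15.03 ± 4.43 CPM (set A) and 27.97 ± 11.6 CPM (set B, log2 fold change -3.18 ± 0.28 and -2.28 ± 0.27, edgeR adjusted p = 7.28e-08 and 3.42e-06). Xpr1, the phosphate exporter, fell from 571.6 ± 61.5 CPM to 295.2 ± 33.2 and 293.5 ± 28.7 CPM (-0.98 ± 0.13 and -0.99 ± 0.13, adjusted p = 7.38e-06 and 7.12e-06). Slc25a3, which carries phosphate into mitochondria, fell by 0.84 and 0.82 on the log2 scale (adjusted p = 1.09e-05 and 1.46e-05). Ezr, the ezrin that ties scaffolds to actin, rose from 655.6 ± 40.6 CPM to 1430 ± 181 and 1471 ± 212 CPM (1.10 ± 0.12 and 1.14 ± 0.12, adjusted p = 1.14e-06 and 8.15e-07). The other 2 genes that fell were Slc9a3r1, the scaffold NHERF1 (-0.89 ± 0.20 and -0.95 ± 0.20, adjusted p = 0.00253 and 0.00146), and Slc17a1, a proximal tubule organic anion carrier first described as a phosphate carrier (-2.56 ± 0.53 and -1.51 ± 0.51, adjusted p = 0.00112 and 0.0371). The other gene that rose was Slc34a2, the other carrier of the Slc34 family, known from lung and intestine. It had 0, 58, 26 and 76 counts in control, 473, 516, 1055 and 305 in set A and 505, 223, 328 and 480 in set B, without overlap in CPM (log2 fold change 4.09 ± 0.66 and 4.07 ± 0.66, adjusted p = 9.87e-05 and 1.05e-04). Its levels of 19.8 ± 3.89 and 19.5 ± 7.90 CPM in the sets were far under that of Slc34a1 in the same kidneys.

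The genes downstream of the hormone receptors were read from lists of the same kind. In parathyroid hormone signalling the medians were -0.08 and -0.14. Of its 8 tested genes, 1 was higher and 1 lower in set A, and 1 was higher and 0 lower in set B, where 10.5 and 11.7% and 10.9 and 11.9% of all genes were. The gene higher in each set was the kinase Prkca (0.88 ± 0.20 and 0.73 ± 0.20, edgeR adjusted p = 0.00288 and 0.0117), and the gene lower in set A was the phospholipase Plcb1 (-0.58 ± 0.18, adjusted p = 0.0236, with -0.43 ± 0.18 and adjusted p = 0.10 in set B). Gnas, the G protein subunit that couples the receptor to cyclic AMP, had log2 fold changes of -0.05 ± 0.10 and -0.09 ± 0.10 (adjusted p = 0.836 and 0.602). The hormones Pth and Fgf23, which are made outside the kidney, were at 0 counts in all 12 kidneys. Of 13 FGF receptor and signalling genes, 3 were higher in each set, where 10.5 and 10.9% of all genes were, and 1 was lower in set A (medians 0.23 and 0.42). The feedback inhibitor Spry2 rose in both sets (1.203 ± 0.13 and 1.01 ± 0.13, adjusted p = 1.01e-06 and 8.67e-06), as did the transcription factor Egr1, a readout of FGF23 and of other growth factors (1.12 ± 0.28 and 0.93 ± 0.28, adjusted p = 0.00537 and 0.0180). The adaptor Grb2 passed in set A (0.64 ± 0.17, adjusted p = 0.0102) and had a value of 0.42 ± 0.17 in set B (adjusted p = 0.0952), where the third gene to pass was the kinase Mapk3 (0.37 ± 0.13, adjusted p = 0.0482). The receptor Fgfr4 was lower in set A (-2.25 ± 0.54, adjusted p = 0.00421) and had a value of -1.29 ± 0.52 in set B (adjusted p = 0.0877). Of the 3 tested genes of the Klotho family and its shedding (medians 0.42 and -0.01), the protease Bace1 was higher in both sets (0.71 ± 0.23 and 0.93 ± 0.23, adjusted p = 0.0321 and 0.00559). The proteases Adam10 (0.12 ± 0.11 and -0.01 ± 0.11, adjusted p = 0.568 and 0.977) and Adam17 (0.42 ± 0.23 and -0.07 ± 0.23, adjusted p = 0.242 and 0.907), which cut Klotho off the membrane, did not pass.

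The precursor of active vitamin D enters the proximal tubule with its binding protein, by endocytosis. Of 9 tested genes of vitamin D synthesis, uptake and electron supply, 0 were higher and 4 were lower in each set, where 11.7 and 11.9% of all genes were lower, and the medians were -1.52 and -1.54. Lrp2, the endocytic receptor megalin, fell from 756.3 ± 42.2 CPM in control to 115.4 ± 43.3 and 108.2 ± 59.8 CPM in the sets (-2.74 ± 0.32 and -2.82 ± 0.32, edgeR adjusted p = 2.34e-06 and 1.85e-06). Its partner Cubn (cubilin) had log2 fold changes of -2.29 ± 0.40 and -2.18 ± 0.40 (adjusted p = 2.16e-04 and 3.41e-04), and the endocytic adaptor Dab2 of -0.74 ± 0.16 and -0.59 ± 0.16 (adjusted p = 0.00174 and 0.0102). Cyp27a1, a mitochondrial sterol hydroxylase, was lower in set A (-2.82 ± 0.93, adjusted p = 0.0346) and had a value of -1.54 ± 0.89 in set B (adjusted p = 0.254), where the fourth gene to pass was Amn (-3.31 ± 1.15, adjusted p = 0.0439), the membrane anchor of cubilin. Of the 9 tested partners of Vdr, 4 passed as lower for set A and 3 for set B, beside the same shares of all genes (medians -0.36 and -0.25). Rxra, the retinoid X receptor with which Vdr binds DNA, stood at 63.9 ± 8.62 CPM in control and at 29.1 ± 2.84 and 23.2 ± 13.6 CPM in the sets (-1.16 ± 0.30 and -1.48 ± 0.31, adjusted p = 0.00827 and 0.00119). The coactivator Ncoa2 and the corepressor Ncor1 changed less, by -0.49 ± 0.13 and -0.39 ± 0.12 in set A and by -0.38 ± 0.13 and -0.36 ± 0.12 in set B (adjusted p = 0.00792, 0.0240, 0.0381 and 0.0375). The coactivator Ncoa1 was lower in set A (-0.40 ± 0.14, adjusted p = 0.0485) and had a value of -0.25 ± 0.14 in set B (adjusted p = 0.252).

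Of 11 genes of renal calcium transport, which in the distal nephron answers to the same hormones, 0 were higher and 3 lower in set A, and 1 was higher and 3 lower in set B (medians -0.35 and 0.10). All genes tested were lower in 11.7 and 11.9% and higher in 10.5 and 10.9%. Slc8a1, the sodium-calcium exchanger, fell by 1.41 and 1.36 on the log2 scale (edgeR adjusted p = 2.49e-05 and 3.59e-05). Calb1, the calcium buffer calbindin, fell from 623.0 ± 109 CPM in control to 185.5 ± 124 and 154.3 ± 55.9 CPM (-1.76 ± 0.32 and -2.04 ± 0.33, adjusted p = 3.85e-04 and 9.73e-05). The calcium-sensing receptor Casr had changes of -1.43 ± 0.27 and -1.07 ± 0.26 (adjusted p = 4.58e-04 and 0.00524). In set B its range overlapped that of control (560 to 654 CPM). Replicate 4 of set B had 564 CPM, against 142, 213 and 260 CPM in replicates 1 to 3. That kidney also had the highest Slc12a1 of set B (542 CPM). Casr is expressed mainly in the thick ascending limb, whose 5 markers summed to 1667 to 1788 CPM in control, 302 to 395 CPM (set A) and 290.5 to 813 CPM (set B) after ischemia. Of these markers, 2 were lower in each set, Slc12a1, the cotransporter that defines the segment (-3.07 ± 0.31 and -2.56 ± 0.30, adjusted p = 3.09e-07 and 2.61e-06), and Cldn10 (-2.68 ± 0.52 and -2.78 ± 0.52, adjusted p = 6.25e-04 and 4.67e-04), whereas Umod, the other abundant product of the segment, had values of 0.16 ± 0.24 and 0.16 ± 0.24 (adjusted p = 0.760 and 0.742). The part of these cells in the Casr values was not tested. Trpv5, the apical calcium channel, was higher in set B (1.21 ± 0.40, adjusted p = 0.0337), with overlapping ranges, and had a value of 0.60 ± 0.39 in set A (adjusted p = 0.341). Of 7 tested genes of pyrophosphate and mineral matrix, 2 were higher and 1 lower in each set (medians -0.55 and -0.41). Spp1, the matrix phosphoprotein osteopontin, rose from 16.6 ± 2.78 CPM to 565.2 ± 107 and 717.6 ± 185 CPM (5.08 ± 0.20 and 5.41 ± 0.21, adjusted p = 3.11e-12 and 2.52e-12). Ank, the pyrophosphate exporter, rose by 1.15 ± 0.19 and 0.77 ± 0.19 (adjusted p = 1.51e-04 and 0.00504). The phosphatase Alpl, which splits pyrophosphate, had log2 fold changes of -1.85 ± 0.41 and -1.44 ± 0.41 (adjusted p = 0.00232 and 0.0140), with ranges that overlapped control in set B. In none of the 8 lists did a gene pass between the sets.

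**Figure D4:**
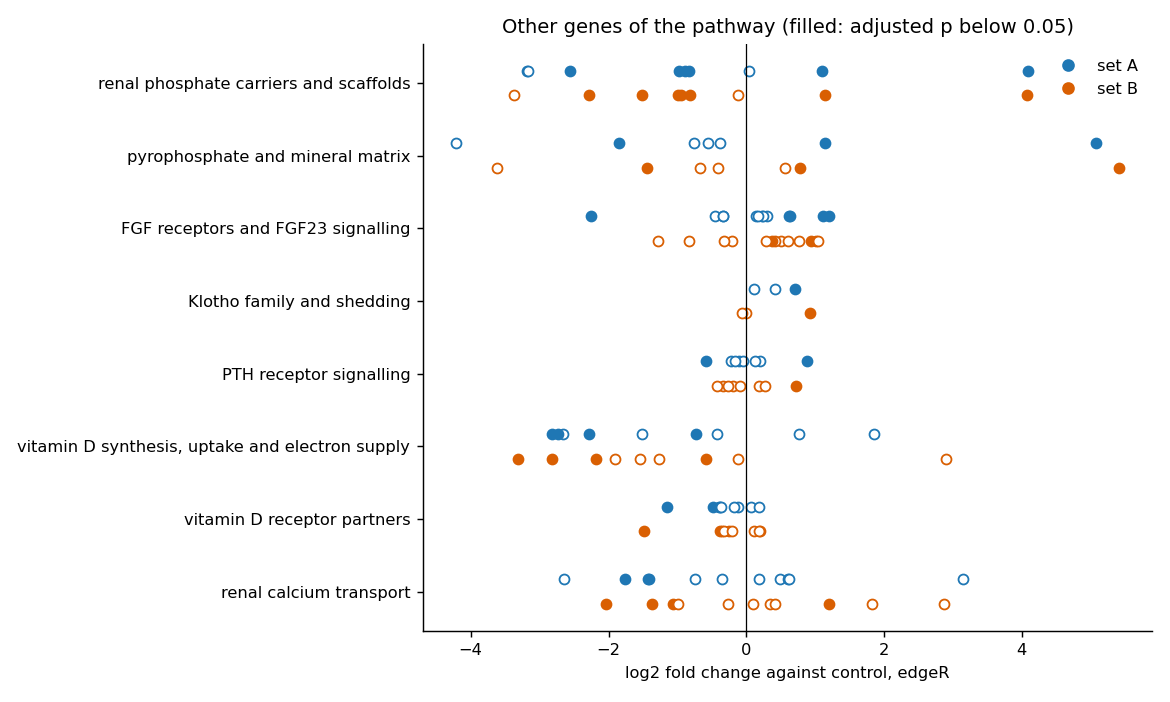
Log2 fold change against control, from edgeR, of the tested genes of 8 lists around the axis, with a row for each list. Points are genes, blue for set A and orange for set B, and filled points have an adjusted p below 0.05. Spp1 and Slc34a2 lie farthest to the right of the filled points, at 5.08 and 4.09 in set A, and the lists of vitamin D uptake and vitamin D receptor partners hold no filled point right of 0.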

How the data were processed

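Total RNA of 12 kidneys was made into stranded mRNA libraries and sequenced as single reads of 100 bases. Reads were aligned by the authors to the mm10 genome (STAR) and assigned to genes (HTSeq), and the deposited values are raw counts of 23420 genes. The tool versions, the annotation release and the strand setting of the counting are not given in the sources used here. The labels name no litters or batches, so that p-values measure the spread between these kidneys. The 10 genes and all lists were chosen with earlier results of these data known.

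In edgeR 4.0.16 (R 4.3.3), the default low-count filter (minimum count 10, minimum total 15) left 11664 genes, libraries were scaled by TMM (factors 0.968 to 1.03), and 1 coefficient per group was fitted to all 12 kidneys. Two-sided quasi-likelihood F-tests were adjusted by Benjamini-Hochberg across these genes, and p below 0.05 was called. Standard errors and 95% intervals derive from the F statistics. CPM use the total count of a kidney, and RPKM the union exon length in GENCODE M21. The 2 within-kidney ratios were compared by exact permutation tests with SciPy 1.17.1. From each list, up to 4 called genes with the smallest adjusted p were named, and for each member the 3 genes nearest in profile, at a minimum mean log2 CPM of 1 (prior count 2). Marker genes of a cell type were named where they stand beside a result. Slc34a2, Slc9a3r1, Slc17a1, Mapk3, Amn, Gnas, Adam10, Adam17, Fdx1, Pth and Fgf23 were named outside this rule, after their values were seen. Ank stands for the listed Ankh through RefSeq synonyms. Other runs used DESeq2 1.42.0, limma-trend (limma 3.58.1), RLE size factors (relative log expression), no low-count filter or a minimum of 1 CPM exceeded in 4 kidneys, the replicate number as a block, only the kidneys of both groups compared, or 11 kidneys with each left out in turn. For the ratios, a pseudocount of 2 in place of 0.5 and shares without length were tried.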

Additional observations from a re-analysis of the deposited data

Results flagged for a closer look

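In 8 of 35 groups of 4 kidneys, 1 kidney stood apart by Dixon's test. Its rate of about 1 in 20 groups by chance holds for independent values with a normal spread. A group with a single kidney off 0 is always marked, as were Slc34a3 in set A and Cyp27b1 in control. The mark for the enzyme ratio in control rests on the same Cyp27b1 counts, so that 8 of 35 cannot be set against that rate. Pth1r was low in control replicate 3 (242 CPM) and high in set B replicate 3 (136 CPM), and the calls against control held without either kidney. Vdr was highest in set A replicate 1 (98.7 CPM), where the other 3 kidneys lay between 90.2 and 90.9 CPM. Slc34a3 had its single count of set A in replicate 2 (0.043 CPM), which is under the detection floor. Slc20a2 was high in set B replicate 3 (12.2 CPM) and Cyp24a1 in control replicate 1 (8.79 CPM), neither of which belonged to a called gene. Control replicate 3 held the only Cyp27b1 counts of its group (1.46 CPM), and this kidney also had the lowest log2 ratio of Cyp24a1 to Cyp27b1 among the controls (0.33).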

How the results depend on the processing

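Against control, the counts of genes and of members called stayed within 1.5 times their values under every alternative (with a kidney left out, 2142 to 2874 genes for set A against control and 2213 to 2654 for set B), and 166 member fold changes in each set kept their direction and call while 5 did not. The exceptions were Fgfr1 in set A, which passed in 5 alternatives, and Cyp24a1 in set B, whose sign turned with the replicate number as a block (-0.67), in limma-trend (-0.84) and with a kidney left out (-0.38 to 0.97). Between the sets, the 1 gene called became 27 in DESeq2, 6 with no low-count filter, 0 with only the 2 groups compared, 0 in limma-trend and 0 to 7 with a kidney left out, and the members called became 1 in DESeq2, 1 with no filter and 0 to 1 with a kidney left out. Differences near 0 between the sets turned sign, for Slc34a1 under the block (-0.011), in limma-trend (-0.050) and with a kidney left out (-0.31 to 0.30), for Slc20a1 (-0.12 to 0.11) and for Pth1r (-0.32 to 0.056). The replicate block gave 2491, 2531 and 1 genes and 6, 6 and 0 members, and samples with the same number did not deviate together (correlations of -0.055 to 0.045 in 12 pairs, with 2 of 12 kidneys nearest to their own number). The Slc20 share differed from control by 34.3 to 41.3 percentage points for set A and 35.6 to 43.6 for set B with a kidney left out, where an exact permutation test of 3 kidneys against 4 cannot go under p = 0.0571, and between the sets by -2.38 to 5.64. Without length the share differed from control by 41.7 and 42.9 points and between the sets by 1.14. With a pseudocount of 2 the enzyme ratio differed by 1.78, -1.70 and -3.48, and with a kidney left out it ranged from 0.36 to 3.30 and -4.53 to -1.51 against control and from -5.98 to -3.76 between the sets. Paired by number its exact p was 0.625, 0.5 and 0.125. The floor of 3 counts limits Cyp27b1, and Slc34a3 in set A, and the source of the zeros was not tested.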
